A study of Homo sapiens with 6 samples.

Results

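The 58 genes described here lie in 2 clusters of zinc-finger genes on the long arm of human chromosome 19. The cluster at 19q13.31 has 18 members, from ZNF404 to ZNF180 (chr19:43872365-44500524, GRCh38), and the cluster at 19q13.41 has 40, from ZNF175 to ZNF331 (chr19:51571283-53580269). The members were taken from a list of gene symbols by position and not by a threshold on their levels, although earlier results of these data were known when the list was made. All 58 were found among the 60483 genes of the count table. Of these, 1 (ZNF702P) is annotated as a transcribed pseudogene and the others as protein-coding.

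Zinc-finger proteins of the C2H2 class bind DNA through a string of finger domains. Most genes of these clusters belong to the KRAB class, in which a domain ahead of the fingers recruits the co-repressor TRIM28 and, through it, the histone methyltransferase SETDB1 and heterochromatin proteins, and many such proteins silence transposable elements. The genes of a cluster arose by tandem duplication and resemble each other in sequence, and HELLS, the gene lost in the mutant cells, encodes a chromatin remodeler of the SNF2 family that is known to support DNA methylation in repressed chromatin.

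RNA-seq libraries came from HAP1 (C631) cells, a near-haploid line derived from a chronic myelogenous leukemia, and from HELLS KO cells, 1 purchased HAP1 clone in which exon 3 of HELLS carries an insertion of a single base pair. Both were grown under normal conditions with no agent added, and each gave 3 libraries, numbered 1 to 3. Replicate 3 of both genotypes carries the same batch label. The comparison asks which zinc-finger transcripts differ in level between cells with and without HELLS. Since 1 clone was compared with 1 parental line, the genotype and the clone cannot be told apart, and the p-values measure the spread between these libraries, which may be technical.

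The libraries held between 13641237 and 14859360 counts in replicates 1 and 2 and 24126357 and 24400187 counts in replicate 3, so that 3 counts, the limit that a count of 0 allows, correspond to a level between 0.123 and 0.218 CPM (counts scaled to the library size). This limit and the intervals below cover counting error only. HELLS transcripts had 1444, 1488 and 3671 counts in HAP1 replicates 1, 2 and 3, and 1410, 1375 and 2802 in HELLS KO replicates 1, 2 and 3. With a log2 fold change of -0.24 the gene was not called, and a level of the transcript is no check of a mutation that inserts a single base pair. Of 10 hematopoietic markers, 7 had at most 10 counts in every library, and PTPRC, SPI1, MPO and ITGAM, which define leukocytes and myeloid cells, had at most 2. The summed level of these markers was 22.1 to 41.0 CPM in HAP1 and 4.19 to 8.13 CPM in HELLS KO libraries. Most of this difference was KIT, which fell by 2.90 on the log2 scale (edgeR's quasi-likelihood test, Benjamini-Hochberg adjusted p = 0.0153). Among 10 fibroblast and cartilage markers, 4 had at most 10 counts in every library, DCN, LUM and FAP being at 0. Only 5 of the 10 were tested and 0 were called, beside 1.50% of all genes tested called higher and 0.720% lower. The 10 markers had a summed level of 418 to 567 CPM in HAP1 and 369 to 470 CPM in HELLS KO. Most of this sum was COL2A1, with 365 ± 82.4 CPM (SD, n = 3) in HAP1 and 353 ± 55.4 CPM (SD, n = 3) in HELLS KO. PDGFRA, another of the 10, had 83.1 ± 22.9 CPM (SD, n = 3) in HAP1 and 27.5 ± 11.2 CPM (SD, n = 3) in HELLS KO. Its libraries did not overlap between genotypes, and its log2 fold change of -1.59 missed the call (edgeR adjusted p = 0.0605). The part of both marker lists in the results below was not tested.

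In HELLS KO cells, 9 members were higher than in HAP1 and 0 were lower. The 9 were ZNF223, ZNF285 and ZNF229 at 19q13.31, and ZNF880, ZNF528, ZNF534, ZNF600, ZNF415 and ZNF347 at 19q13.41. A gene was called higher or lower at an adjusted p under 0.05 and a change of at least 2-fold in edgeR's quasi-likelihood test. Of the 58 members, 56 had enough counts to be tested (18 of 18 and 38 of 40), so that 16.1% of the tested members were called higher, and the shares of the 2 clusters were close to each other at 16.7% and 15.8%. Over all 17925 genes tested, 1.50% were called higher and 0.720% lower. At an unadjusted p under 0.05, 5 members at 19q13.31 and 10 at 19q13.41 were higher and 0 were lower, against 3.29% and 3.30% of all genes tested, and DESeq2 also called 0 lower. RNA was taken from bulk cultures, in which fewer cells that express a gene and less RNA of it per cell cannot be told apart.

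Most of the called members were silent or nearly so in HAP1. Over all 58 members, 9 never exceeded 3 counts in a HAP1 library, and all 9 of these had more than 3 counts in every HELLS KO library, against 0.947% of the 35695 genes of the whole table with so few HAP1 counts. The whole table also holds pseudogenes and noncoding genes, while all members but ZNF702P are protein-coding, so the sets compared are unlike. The 9 silent members were 7 of the called members together with ZNF677 and ZNF525, which were too low to be tested. Such a gene passes the filter on low counts only through its HELLS KO libraries, so it had to differ to be tested at all, and its fitted fold change depends on the prior count that edgeR adds. Given for each is therefore either a bound on the mean CPM or, with 1 to 3 HAP1 counts in all, the ratio of the counts pooled over the 3 libraries of each genotype and scaled by their pooled library sizes. In HELLS KO, 0 members were silent by the same limit.

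At 19q13.31, the called member with the highest level in HELLS KO was ZNF229 (ENSG00000278318, chr19:44417519-44448578, minus strand). It had 0 counts in each HAP1 library, whereas HELLS KO replicates 1, 2 and 3 had 249, 379 and 899 counts. Every HELLS KO library was thus above every HAP1 library, and against 3 counts per library its level was at least 145-fold higher in HELLS KO (edgeR adjusted p = 0.00254). The member beside it, ZNF285 (ENSG00000267508, chr19:44382298-44401608, minus strand) went from 0, 0 and 1 counts in the HAP1 libraries to 97, 100 and 225 in the HELLS KO libraries. The genotypes did not overlap, and the ratio of the pooled counts was 412, with a 95% counting interval of 73.6 to 16322 (edgeR adjusted p = 0.00066). ZNF223 (ENSG00000178386, chr19:44051367-44067999, plus strand) had 0 counts in all HAP1 libraries and 15, 18 and 57 counts in HELLS KO. It was at least 8.36-fold higher (edgeR adjusted p = 0.0235). ZNF223 is the least secure of the 3 as a single gene, since 45.7% of its exon bases also lie in a readthrough gene on the same strand (ENSG00000267022), which itself had 0 counts in every library.

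At 19q13.41, ZNF880 (ENSG00000221923, chr19:52369917-52385795, plus strand) had 0 counts in each HAP1 library and 217, 221 and 564 in HELLS KO, at least 96.6-fold higher (edgeR adjusted p = 0.00154). The next member along the chromosome, ZNF528 (ENSG00000167555, chr19:52397849-52418412, plus strand), went from 0, 0 and 2 counts in the HAP1 libraries to 123, 120 and 425 in the HELLS KO libraries. Its ratio of pooled counts was 326, with a counting interval of 90.0 to 2700 (edgeR adjusted p = 0.00198). Both genes passed from silent in HAP1 to readily counted in every HELLS KO library. ZNF534 (ENSG00000198633, chr19:52429148-52452315, plus strand), the member after ZNF528, had fewer reads, with 0, 0 and 1 counts in the HAP1 libraries against 15, 21 and 75 in the HELLS KO libraries, a ratio of 108 with an interval of 19.1 to 4321 (edgeR adjusted p = 0.0130). ZNF415 (ENSG00000170954, chr19:53107879-53133077, minus strand) went from 0, 0 and 1 counts in the HAP1 libraries to 26, 28 and 92 in the HELLS KO libraries, a ratio of 143 with an interval of 25.2 to 5672 (edgeR adjusted p = 0.00629). The genotypes did not overlap for any of these genes.

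The other 2 called members of this cluster were expressed in HAP1 and rose from a low level. ZNF600 (ENSG00000189190, chr19:52749942-52786807, minus strand) went from 20, 2 and 41 counts in the HAP1 libraries to 166, 158 and 439 in the HELLS KO libraries. In CPM this was 1.09 ± 0.829 (SD, n = 3) against 13.5 ± 3.93 (SD, n = 3), a log2 fold change of 3.57 ± 0.62 (SE, edgeR adjusted p = 0.0295). HAP1 replicate 2 stood far below the other two HAP1 libraries. ZNF347 (ENSG00000197937, chr19:53124072-53159075, minus strand) went from 6, 11 and 41 counts in the HAP1 libraries to 103, 106 and 297 in the HELLS KO libraries. Its level was 0.977 ± 0.662 CPM (SD, n = 3) against 8.90 ± 2.86 CPM (SD, n = 3), a log2 fold change of 3.12 ± 0.50 (SE, edgeR adjusted p = 0.0216), and the genotypes did not overlap for either gene. Not every HAP1 library of ZNF600 or ZNF347 reached the filter on low counts, so both passed it with the help of HELLS KO libraries.

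**Figure D1:**
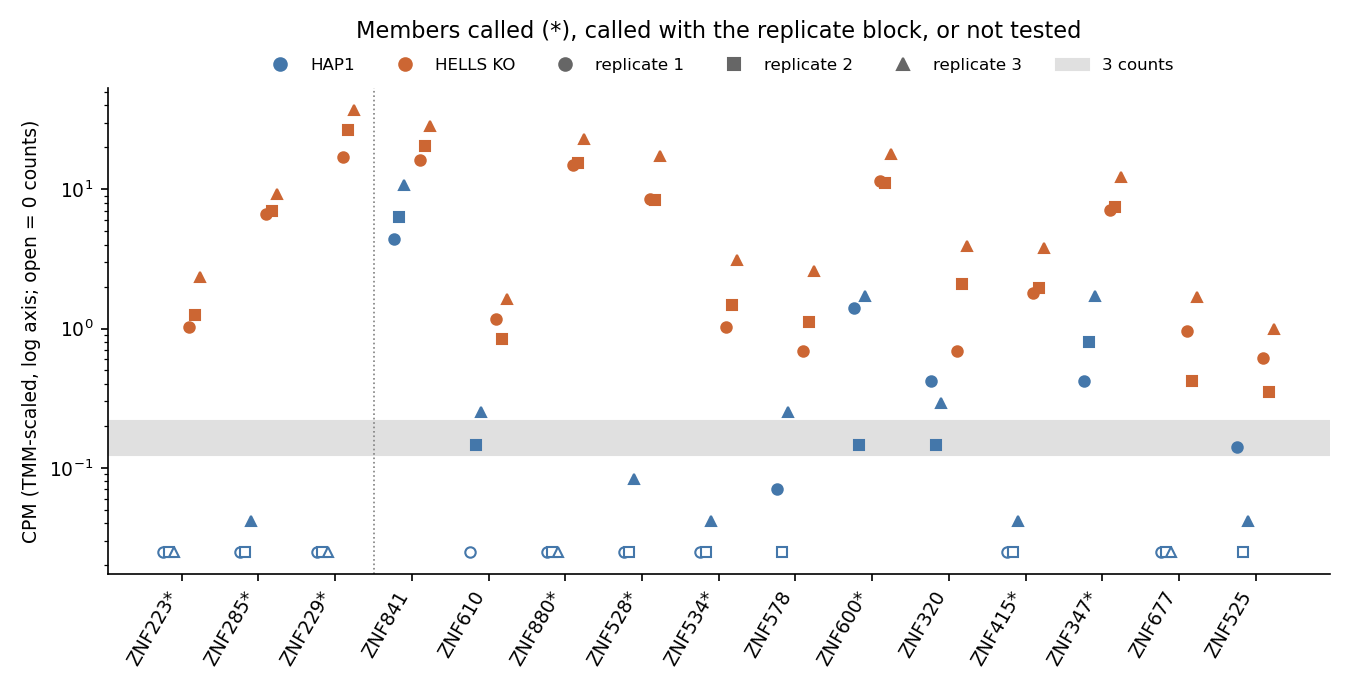
CPM on a log axis in each library (HAP1 blue, HELLS KO orange, symbol shape = replicate number) for the 9 called members (asterisks), the 4 that edgeR called with the replicate block but not unpaired, and the 2 not tested. Open symbols at the bottom are 0 counts, the gray band is the level of 3 counts, and the dotted line separates 19q13.31 from 19q13.41. For each gene the 3 HELLS KO points lie above the 3 HAP1 points, and replicate 3 is the highest HELLS KO point for every one of them.

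A further 4 members at 19q13.41 did not pass the unpaired test but were called once the replicate number was taken as a block, which raised the count there from 6 to 10 and left it at 3 at 19q13.31. The background rose as well, to 2.03% of all genes called higher with the block. ZNF841 was the most abundant of the 4, with 63, 87 and 259 counts in HAP1 libraries against 235, 291 and 693 in HELLS KO libraries. The log2 fold change of this gene was 1.58 ± 0.37 (SE), with an edgeR adjusted p of 0.108 unpaired and 0.000602 with the block. ZNF610, the member just before ZNF880, had 0, 2 and 6 counts in HAP1 libraries against 17, 12 and 40 in HELLS KO libraries, with an edgeR adjusted p of 0.122 unpaired and 0.0294 with the block. For ZNF578, the member after ZNF534, the counts were 1, 0 and 6 in HAP1 libraries against 10, 16 and 63 in HELLS KO libraries, with an edgeR adjusted p of 0.143 unpaired and 0.00991 with the block. Both were low in every library, and neither had more than 6 counts in HAP1. ZNF320 had 6, 2 and 7 counts in HAP1 libraries against 10, 30 and 95 in HELLS KO libraries, with an edgeR adjusted p of 0.136 unpaired and 0.0360 with the block. Like the called members silent in HAP1, ZNF610, ZNF578 and ZNF320 passed the filter on low counts only through their HELLS KO libraries. They too had to differ to be tested in edgeR. DESeq2 called the same 4, with 11 members called higher at 19q13.41 against a background of 1.58% of the genes it gave an adjusted p. The eleventh was ZNF677, which went from 0 counts in each HAP1 library to 14, 6 and 41 in HELLS KO libraries, at least 5.53-fold higher (DESeq2 adjusted p = 0.000634). ZNF525, not tested in edgeR, had 2, 0 and 1 counts in HAP1 libraries against 9, 5 and 24 in HELLS KO libraries, a ratio of 12.4 with an interval of 3.93 to 62.7, and DESeq2 did not call it.

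Most members differed little. Among the 47 members tested and not called, the median log2 fold change was 0.14 and 37 lay within 0.5 of 0, which were 11 of 15 at 19q13.31 and 26 of 32 at 19q13.41. The median over all tested members was 0.19 at 19q13.31 and 0.14 at 19q13.41, and it was 0.01 over all genes. These medians depended on single libraries, at 0.53 and 0.47 without HAP1 replicate 3 and 0.030 and -0.017 without HELLS KO replicate 3. Of the 56 tested members, 49 had a fold change above 0 and 7 below. The HELLS KO libraries were all above the HAP1 libraries for 16 members (background 4.99%) and all below for 0 (background 5.09%), and the libraries of the genotypes overlapped for the other 40. The 16 include the called members silent in HAP1 and ZNF610, ZNF578 and ZNF320. These passed the filter on low counts only through HELLS KO libraries, which fixed their side in advance, so the count of 16 carries no test. The lowest fold change was that of ZNF701, with 19, 29 and 71 counts in HAP1 libraries against 20, 13 and 45 in HELLS KO libraries (log2 fold change -0.63, edgeR adjusted p = 1.00).

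The largest differences that missed the call at 19q13.31 were small beside those of the called genes. ZNF404 had 16, 25 and 55 counts in HAP1 libraries against 70, 49 and 106 in HELLS KO libraries, for a log2 fold change of 1.25 ± 0.34 (SE, edgeR adjusted p = 0.211). With a term for the batch label of replicate 3 it was called (edgeR adjusted p = 0.0487), which made 4 called members at 19q13.31, and its adjusted p ranged from 0.0487 to 0.588 over the alternatives. ZNF233 had 13, 35 and 50 counts against 46, 44 and 121, a log2 fold change of 1.02 ± 0.42 (SE, edgeR adjusted p = 0.716). ZNF235 had 151, 157 and 460 counts against 255, 272 and 623, and a log2 fold change of 0.59 ± 0.28 (SE, edgeR adjusted p = 0.906). Its adjusted p in edgeR was 0.0516 with the replicate block and 0.0270 with the batch term, in both cases with a change under 2-fold, and it was higher in HELLS KO within each replicate number (10.6 and 17.5, 11.4 and 19.04, and 19.2 and 25.6 CPM). Without pairing, the libraries overlapped for ZNF235, while those of ZNF404 and ZNF233 did not overlap once scaled to library size.

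**Figure D2:**
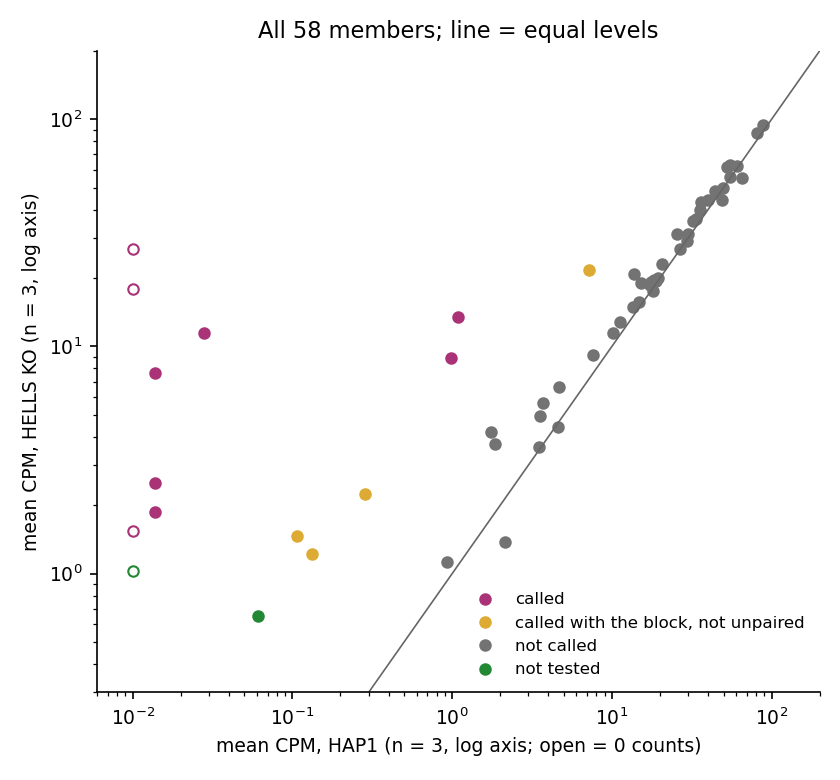
Mean CPM in HELLS KO against mean CPM in HAP1 for all 58 members (n = 3 libraries each, both axes logarithmic, no error bars), where open circles had 0 counts in HAP1 and are drawn at the left edge. Most members that were not called (gray) lie near the line of equal levels, those called with the block but not unpaired (yellow) and those not tested (green) lie above it, and 7 of the 9 called members (purple) lie at the left, where no HAP1 library exceeded 3 counts.

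Levels of different genes were compared per length, in the deposited FPKM values. The most abundant members were the same in both genotypes. ZNF480 had 16.5 ± 5.50 FPKM (SD, n = 3) in HAP1 and 17.7 ± 4.37 FPKM (SD, n = 3) in HELLS KO, and ZNF761 had 12.8 ± 2.33 and 12.9 ± 2.88 FPKM. At 19q13.31 the highest was ZNF45, with 11.8 ± 3.71 FPKM (SD, n = 3) in HAP1 and 13.8 ± 4.18 FPKM (SD, n = 3) in HELLS KO. None of these differed between genotypes by more than the spread of the libraries, and the order of the top 4 in each genotype is not resolved by that spread. ZNF331, known as an imprinted gene, had 11.3 ± 1.67 FPKM (SD, n = 3) in HAP1 and 12.03 ± 2.02 FPKM (SD, n = 3) in HELLS KO, which is a log2 fold change of 0.09 ± 0.17 (SE). ZNF180 and ZNF227, also among the 3 most abundant at 19q13.31, had log2 fold changes of 0.14 ± 0.26 and 0.15 ± 0.23 (SE).

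In HELLS KO the called members reached modest levels. Their mean FPKM lay between 0.456 for ZNF223 and 4.80 for ZNF229, with a median of 1.09, while the uncalled tested members had a median of 3.98 FPKM in HELLS KO and 3.76 FPKM in HAP1. ZNF229 (4.80 ± 1.79 FPKM, SD, n = 3) and ZNF880 (4.72 ± 1.24 FPKM, SD, n = 3) ranked 21 and 22 of the 58 in HELLS KO, within the range of members that HAP1 also expressed. The other 7 ranked from 35 (ZNF600, 2.40 FPKM) down to 52 (ZNF223). The called members together made up 0.0951% to 0.238% of the summed CPM of all members in the HAP1 libraries and 6.01% to 7.37% in the HELLS KO libraries. As groups of libraries, the summed levels of a cluster overlapped between genotypes, with 293 ± 78.1 CPM in HAP1 and 374 ± 81.5 CPM in HELLS KO at 19q13.31 (SD, n = 3), and 896 ± 212 and 1009 ± 229 CPM at 19q13.41 (SD, n = 3). Within each replicate number, the sum at 19q13.31 was higher in HELLS KO, at 253 and 299.8, 243 and 359.9, and 383 and 461 CPM for HAP1 and HELLS KO in replicates 1, 2 and 3. Without the called members these were 253 and 275, 243 and 325, and 383 and 413 CPM. At 19q13.41 the sums were 798 and 796, 751 and 980.1, and 1139 and 1251 CPM, and without the called members they were 796 and 751, 749.7 and 934, and 1135 and 1173 CPM, so that HELLS KO was below HAP1 in replicate 1 and above it in replicates 2 and 3.

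Along the chromosome, the called members stood singly or in runs of adjacent members, bordered by members that were not called in the unpaired test. ZNF285 and ZNF229 are adjacent members within 66.3 kb (chr19:44382298-44448578), and ZNF233 before them and ZNF180 after them were not called. ZNF415 and ZNF347 overlap on the same strand within 51.2 kb (chr19:53107879-53159075). At 19q13.41, ZNF610, ZNF880, ZNF528, ZNF534 and ZNF578 form an unbroken run of 5 members over 181 kb (chr19:52336243-52516882), of which edgeR called the middle 3 in the unpaired test and the outer 2 with the block but not unpaired. On one side the run is bordered by ZNF480, one of the most abundant members, with a log2 fold change of 0.10 ± 0.27 (SE), and on the other by ZNF808, with one of -0.04 ± 0.22 (SE). ZNF223 and ZNF600 each stood alone between uncalled members. These runs were seen after the values were known and carry no test.

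**Figure D3:**
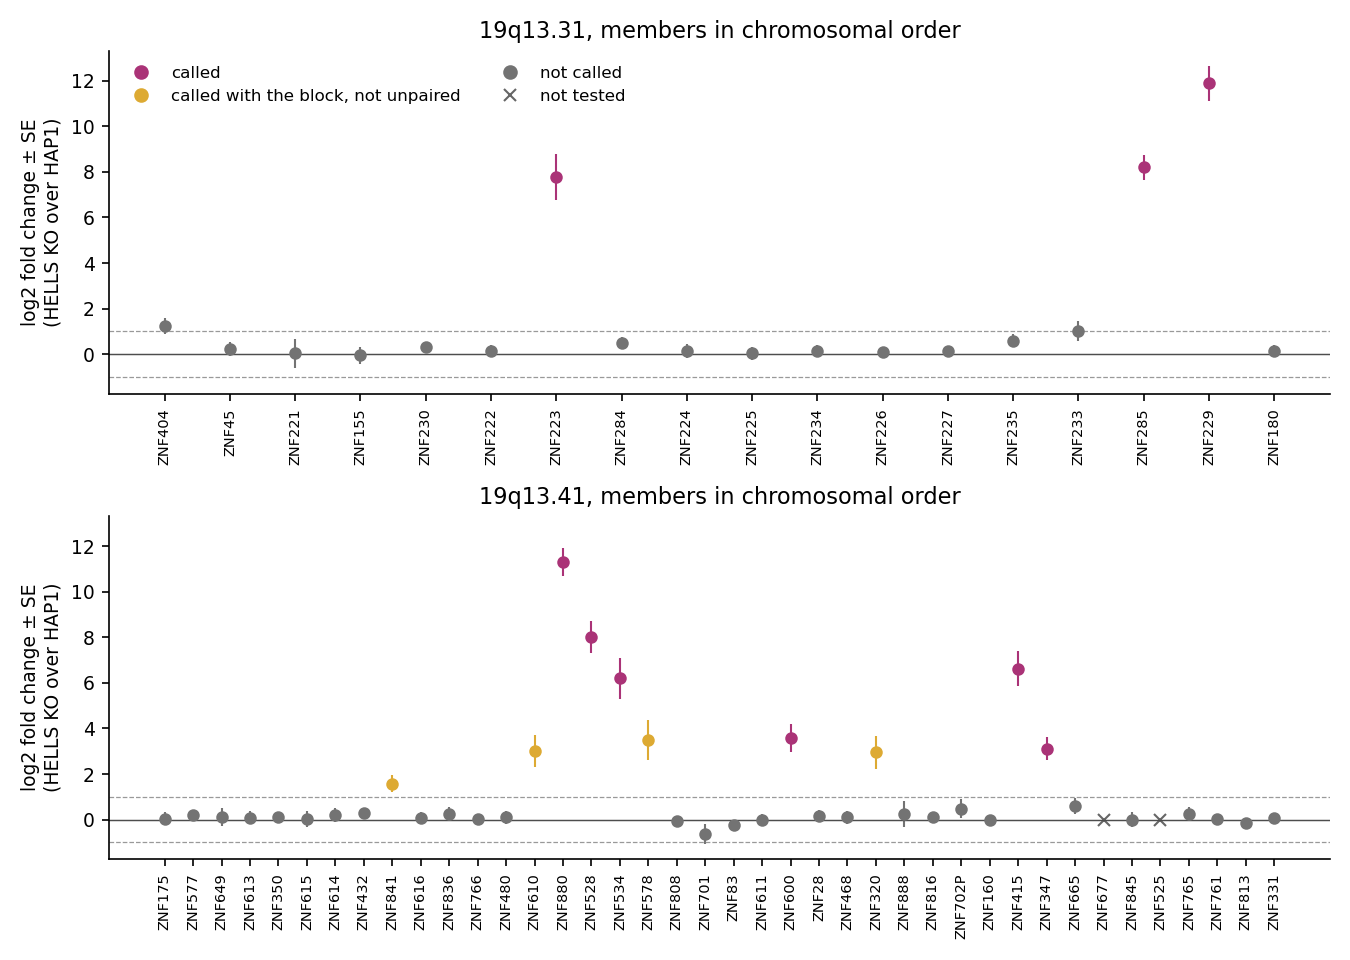
Log2 fold change of HELLS KO over HAP1 with its SE (edgeR, n = 3 libraries each) for the members of 19q13.31 (top) and 19q13.41 (bottom) in chromosomal order, evenly spaced, where dashed lines mark a 2-fold change and crosses mark the 2 members not tested. Called members (purple) and those called with the replicate block but not unpaired (yellow) stand singly or in runs between gray members, most of which lie near 0. The fold changes of genes with 0 HAP1 counts depend on the prior count.

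Other annotated genes inside the intervals were examined in the same fit. The table held 90 of them, of which 22 could be tested, 1 was called higher and 0 lower, beside 1.50% and 0.720% of all genes tested. At an unadjusted p under 0.05, 3 of the 22 were higher and 1 lower, beside 3.29% and 3.30% of all genes. The called gene was ZNF528-AS1, a long noncoding RNA on the opposite strand to ZNF528. It went from 0, 0 and 4 counts in HAP1 libraries to 64, 54 and 111 in HELLS KO libraries, for a log2 fold change of 5.73 ± 0.71 (SE, edgeR adjusted p = 0.00766). With a library omitted the log2 fold change ranged from 5.30 to 9.11. Its size depends on the prior count, as HAP1 replicates 1 and 2 had 0 counts. The call was lost without HELLS KO replicate 2 (edgeR adjusted p = 0.0504) and with limma on log2(FPKM + 1), where the change fell to 0.98 and so missed the 2-fold limit, and it held in the other 12 alternatives that tested the gene. Its start (position 52397791) and that of ZNF528 (position 52397849) are separated by 57 bases and the genes run apart from each other. The 2 genes do not overlap, and both were higher in HELLS KO. The median log2 fold change of the tested neighbors was 0.18 at 19q13.31 and -0.03 at 19q13.41.

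Promoter windows from RefSeq (GRCh38.p14, 250 bases before to 50 after the annotated start) were found for 46 of the 58 members, 60 windows in all. The members without one were ZNF155, ZNF221, ZNF223, ZNF233, ZNF28, ZNF480, ZNF600, ZNF610, ZNF649, ZNF665, ZNF702P and ZNF888. The windows were searched for the dinucleotide CG, the site of DNA methylation. The 8 windows of the 7 called members with one held 15 to 27 CG, with a median of 20, and the 52 windows of 39 other members held 2 to 34, with a median of 22. Over all 35116 RefSeq windows of the same length the median was 14, and 48.9% held at least 15, against 81.7% of the members' windows. The counts of the called members thus lay within the range of the other members. Shown here, with CG in capitals and in the direction of transcription, are 4 called members, among them ZNF229 and ZNF880, which had 0 counts in HAP1, then ZNF180, an uncalled neighbor of ZNF229, and ZNF404, the member with the fewest. They are ZNF229 at chr19:44448423-44448722 (minus strand), ZNF880 at chr19:52369673-52369972 (plus strand), ZNF528 at chr19:52397599-52397898 (plus strand), which also holds the start of ZNF528-AS1, ZNF415 at chr19:53132861-53133160 (minus strand), ZNF180 at chr19:44500473-44500772 (minus strand) and ZNF404 at chr19:43883915-43884214 (minus strand).
ZNF229: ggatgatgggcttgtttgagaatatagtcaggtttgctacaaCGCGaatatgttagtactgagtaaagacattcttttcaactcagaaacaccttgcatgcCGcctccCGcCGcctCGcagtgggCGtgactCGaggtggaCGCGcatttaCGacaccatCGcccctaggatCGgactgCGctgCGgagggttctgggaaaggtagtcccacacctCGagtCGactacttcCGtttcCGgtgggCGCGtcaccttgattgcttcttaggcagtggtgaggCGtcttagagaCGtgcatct
ZNF880: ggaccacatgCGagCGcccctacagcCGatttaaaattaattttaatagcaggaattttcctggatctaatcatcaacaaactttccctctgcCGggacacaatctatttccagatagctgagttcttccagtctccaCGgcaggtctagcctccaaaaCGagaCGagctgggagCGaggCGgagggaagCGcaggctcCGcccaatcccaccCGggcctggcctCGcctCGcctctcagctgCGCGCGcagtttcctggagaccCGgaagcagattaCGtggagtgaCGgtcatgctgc
ZNF528: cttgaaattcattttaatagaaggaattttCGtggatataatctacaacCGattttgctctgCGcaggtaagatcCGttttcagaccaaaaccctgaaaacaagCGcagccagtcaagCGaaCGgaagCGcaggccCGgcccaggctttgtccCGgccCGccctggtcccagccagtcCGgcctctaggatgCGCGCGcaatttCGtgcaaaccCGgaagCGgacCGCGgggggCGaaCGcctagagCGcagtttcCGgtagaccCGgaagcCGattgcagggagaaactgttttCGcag
ZNF415: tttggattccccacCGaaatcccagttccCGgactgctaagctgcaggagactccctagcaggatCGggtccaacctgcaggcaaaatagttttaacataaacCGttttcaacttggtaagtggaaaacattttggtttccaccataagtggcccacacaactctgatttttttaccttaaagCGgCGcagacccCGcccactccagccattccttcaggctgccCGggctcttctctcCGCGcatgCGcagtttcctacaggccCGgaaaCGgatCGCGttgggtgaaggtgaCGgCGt
ZNF180: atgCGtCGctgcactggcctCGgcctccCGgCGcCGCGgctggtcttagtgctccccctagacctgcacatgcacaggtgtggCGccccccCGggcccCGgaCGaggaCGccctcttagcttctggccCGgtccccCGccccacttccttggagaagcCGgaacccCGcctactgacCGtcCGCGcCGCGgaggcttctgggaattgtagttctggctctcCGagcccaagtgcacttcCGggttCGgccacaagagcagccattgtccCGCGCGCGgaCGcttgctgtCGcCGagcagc
ZNF404: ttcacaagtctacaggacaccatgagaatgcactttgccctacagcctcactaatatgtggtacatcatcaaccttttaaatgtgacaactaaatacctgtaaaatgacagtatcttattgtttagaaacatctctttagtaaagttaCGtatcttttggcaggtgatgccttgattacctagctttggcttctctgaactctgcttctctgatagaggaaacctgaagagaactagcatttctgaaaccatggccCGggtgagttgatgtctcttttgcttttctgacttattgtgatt
Of these windows, ZNF528 held 27 CG, ZNF229 held 23, ZNF880 held 20 and ZNF415 held 17, all between the 2 of ZNF404 and the 31 of ZNF180. The ZNF404 window lies inside the annotated span of that gene (chr19:43872365-43901385) and not at its upstream end. Its 2 CG may therefore not describe the promoter of the gene. A second RefSeq start of ZNF229 (chr19:44448529-44448828) held 15. On either strand, GGGCGG, which itself holds a CG, was found in 56.7% of the members' windows and 45.0% of all RefSeq windows, TATAAA in 3.33% and 11.5%, and CCAAT in 28.3% and 34.6%. These are matches of letters and say nothing about occupancy, and DNA methylation was not analysed here.

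The called members had about as many fingers as the rest. Counted in the coding sequence of the canonical transcript as a C2H2 pattern (C, 2 to 4 residues, C, 12 residues, H, 3 to 5 residues, H), they had 8 to 18 fingers with a median of 14, and the others 7 to 26 with a median of 13.5. Of the 9, 4 lie on the plus strand and 5 on the minus strand. Sequence shared with other genes was measured over stretches of 100 bases, the read length. Of the called members, 5 (ZNF880, ZNF528, ZNF534, ZNF415 and ZNF347) share 0% of their 100-base stretches with annotated transcripts of any other gene, as do 16 of the 49 other members. The share was 1.40% for ZNF600, 1.97% for ZNF285, 6.85% for ZNF229 and 42.6% for ZNF223, the last 2 mostly with readthrough or overlapping transcripts on the same strand. For ZNF223 the level can thus not be assigned to this gene alone.

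Transcripts of 12 partners of KRAB zinc-finger proteins and of DNA methylation, chosen as a list, had nearly the same levels in both genotypes. All 12 were tested, and their log2 fold changes lay between -0.10 and 0.13. In edgeR 0 were called, beside 1.50% of all genes tested called higher and 0.720% lower. At an unadjusted p under 0.05 there were also 0, beside 3.29% higher and 3.30% lower of all genes. At such shares a list of 12 genes may well hold 0, so these counts do not set the list apart. DESeq2 called neither TRIM28 nor SETDB1. TRIM28, the co-repressor, had 4801, 4758 and 5560 counts in HAP1 libraries against 4875, 4805 and 5575 in HELLS KO libraries, for a log2 fold change of -0.02 ± 0.21 (SE). SETDB1, the methyltransferase, had 1278, 1099 and 2340 counts in HAP1 libraries against 1028, 1333 and 2319 in HELLS KO libraries, for a log2 fold change of -0.04 ± 0.16 (SE). Leaving out single libraries turned the sign of both, so no direction is given for either.

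Replicate 3 differed from replicates 1 and 2 in the same way in both genotypes. Its CPM was above the mean of the other two in 49 of the 49 tested members with counts in HAP1 replicate 1 or 2 and in 55 of 56 members in HELLS KO, with median ratios of 1.58 and 1.48, while over all genes the median ratios were 1.02 and 1.01. Within each replicate number the 9 called members were higher in HELLS KO. This follows from all their HELLS KO libraries lying above all their HAP1 libraries, and it adds no test. The 47 uncalled members were above HAP1 in 25 for replicate 1, 44 for replicate 2 and 29 for replicate 3, which are 53.2%, 93.6% and 61.7% of them, with median ratios of 1.02, 1.27 and 1.04. Over all genes tested the shares were 50.3%, 52.6% and 44.6% and the median ratios 0.999, 1.01 and 0.986, so the shift of the uncalled members was greatest in replicate 2. The part of the batch label in these levels was not tested.

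The called members also differed in how far they withstood other fits. ZNF229, ZNF285, ZNF880 and ZNF528 were called in each of the 14 alternatives that tested them, and ZNF415 in all but limma on log2(FPKM + 1). ZNF223 was lost when HAP1 replicate 1 or any HELLS KO library was omitted, with edgeR adjusted p up to 0.119. ZNF347 was lost in 5 of the 6 fits that leave out a library, all but the one without HAP1 replicate 3, with edgeR adjusted p up to 0.0866. Omitting HAP1 replicate 1 or any HELLS KO library also took away the call of ZNF600 (edgeR adjusted p up to 0.119), and omitting HAP1 replicate 1 or HELLS KO replicate 2 that of ZNF534 (edgeR adjusted p up to 0.0608). ZNF223 and ZNF534 were also lost with replicates 1 and 2 alone, and ZNF223, ZNF347 and ZNF534 with limma on log2(FPKM + 1), where the adjusted p of ZNF534 reached 0.174, the highest of any called member in any alternative. The number called at 19q13.41 was thus 3 when HAP1 replicate 1 was omitted and 3 when HELLS KO replicate 2 was, against 6 with all libraries. No share over all genes is given for these fits, so the fall cannot be set against the background. In none of the alternatives did a called member change direction, and with a library omitted the log2 fold changes stayed between 7.22 and 8.05 for ZNF223, 2.78 and 3.86 for ZNF347, 3.10 and 4.10 for ZNF600 and 5.56 and 7.95 for ZNF534.

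**Figure D4:**
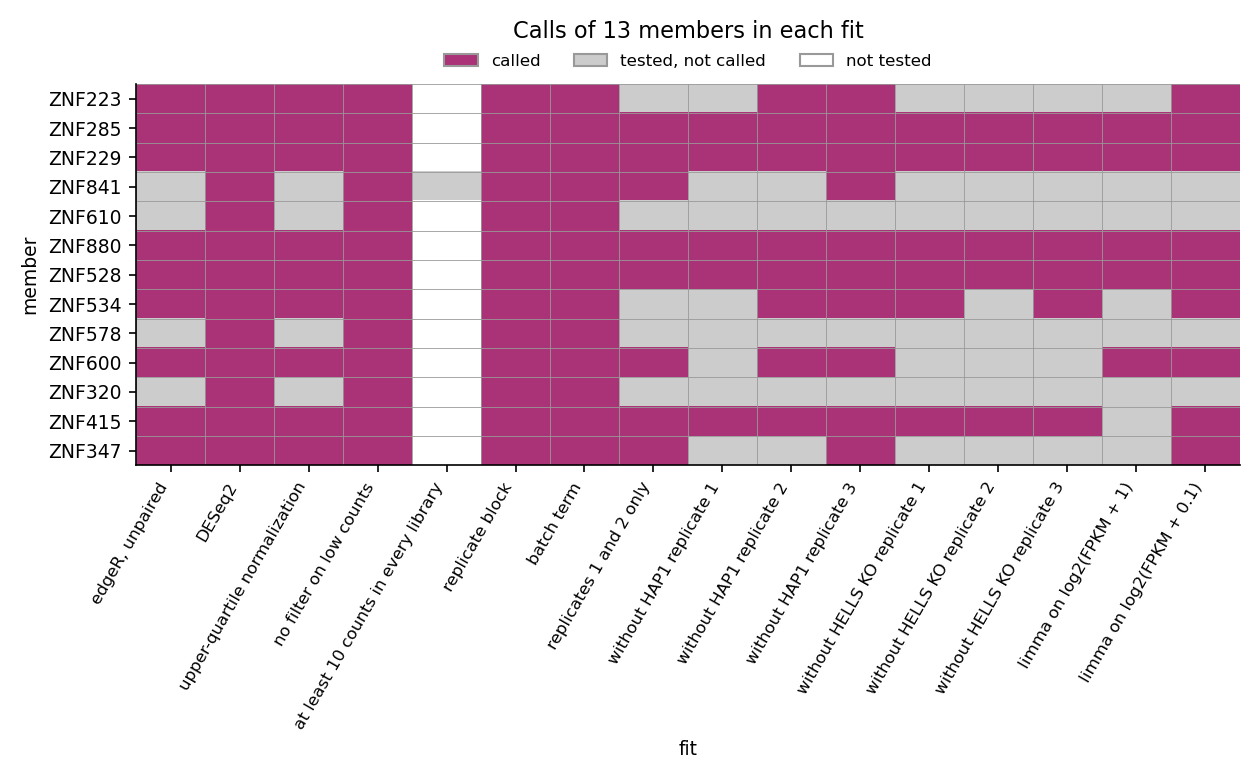
For the 9 called members and the 4 that edgeR called with the replicate block but not unpaired (vertical), whether each fit (horizontal) called the gene (purple), tested but did not call it (gray) or did not test it (white). ZNF285, ZNF229, ZNF880 and ZNF528 are purple wherever tested, and a filter of 10 counts in every library removes 12 of the 13 genes from testing.

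Other zinc-finger genes of chromosome 19, recognized by a ZNF symbol, gave a similar share. Of 184 in the table, 168 were tested, 22 were called higher (13.1%) and 0 lower, with a median log2 fold change of 0.13. The share called in the 2 clusters, 16.1%, was not tested against these.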

How the data were processed

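Gene expression was measured by RNA-seq in 3 HAP1 and 3 HELLS KO libraries. The authors made stranded libraries from total RNA and, according to the methods and the submitters' processing notes, aligned them with STAR 2.7.3a to hg38, removed duplicates, kept reads of mapping quality 20 or more, and assigned them to genes with featureCounts 2.0.6. They deposited raw counts of 60483 genes and FPKM values of 24956 genes, and the notes also name DESeq2 1.44.0. Which annotation and strand setting the counting used is not given in the sources used here, so reads of overlapping and antisense genes may not be separable. Removing duplicates may cap the counts of abundant genes. Members had at most 0.559 counts per exon base.

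Counts were tested with edgeR 4.0.16 in R 4.3.3 (filterByExpr, TMM, glmQLFit, glmQLFTest, Benjamini-Hochberg adjustment over 17925 genes, no covariate) and called where the adjusted p was under 0.05 and the log2 fold change was at least 1 in size. CPM were scaled by the TMM library sizes. SE came from dividing the fold change by the root of the F statistic. Ratios of pooled counts have exact conditional 95% intervals for counting error. Symbols, coordinates and coding sequences came from GENCODE release 44, matched without version for 56321 genes, and promoters from RefSeq. Fits were tested on simulated data with known changes placed in well-counted genes only. That simulation is no check of the fits for genes silent in HAP1. No 2 libraries of a genotype were copies, with at least 2.34 as the chi-square per gene of each pair.

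The members and gene lists were chosen with earlier results of these data known. Genes named with values were HELLS, every called member, members called only with the replicate block or DESeq2, the 3 most abundant and the 3 most changed uncalled members of each cluster, ZNF331, called neighbors, TRIM28 and SETDB1. ZNF525, ZNF701, ZNF808, KIT, PDGFRA and COL2A1 were named after their values were seen. Deviations from the genotype mean correlated between same-numbered libraries at 0.42, 0.20 and 0.78 for replicates 1, 2 and 3. All exceed 0.1, and replicate 3 shares a batch label, so the numbers were treated as pairs in the fit with the replicate block. The value was 0.59 between HAP1 replicate 2 and HELLS KO replicate 1, which leaves the pairs of replicates 1 and 2 less clear. Other fits used DESeq2 1.42.0, upper-quartile normalization, all genes with a count, at least 10 counts in every library, the block, a batch term, replicates 1 and 2 only, each library left out, and limma 3.58.1 on log2(FPKM + 1) and log2(FPKM + 0.1), a scale that understates changes of low genes.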

Additional observations from a re-analysis of the deposited data

How the results depend on the processing

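The number of members called higher at 19q13.41, 6 as reported, was 11 with DESeq2, 11 with no filter, 10 with a batch term and 3 with limma on log2(FPKM + 1). With the replicate block it was 10, and the block left the number at 19q13.31 at 3 and took away no call of the 9 members. The share of all genes called higher was 1.50% as reported, 2.03% with the block and 1.58% with DESeq2. For the other fits no such share is given, so their counts cannot be set against the background. Requiring 10 counts in every library gave 0 at 19q13.31 and 0 at 19q13.41, because that filter left 0 of the 9 called members to test, each having under 10 counts in at least 1 HAP1 library. Leaving out each library in turn gave 2 to 3 called at 19q13.31 and 3 to 7 at 19q13.41, and median log2 fold changes of 0.030 to 0.53 and -0.017 to 0.47. The number called lower was 0 in all 15 alternatives for both clusters.

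Of 377 refits of single named genes, 318 kept their direction and side of the threshold, 23 lost a call, 19 gained one and 17 changed sign. All sign changes were in uncalled genes when a library was left out, and the cause was not tested. The log2 fold change then ranged from -0.017 to 0.53 for ZNF45, -0.052 to 0.44 for ZNF180, -0.018 to 0.40 for ZNF227, -0.097 to 0.42 for ZNF480, -0.13 to 0.19 for ZNF761, -0.0055 to 0.23 for ZNF331, -0.19 to 0.13 for TRIM28 and -0.13 to 0.077 for SETDB1. Depth limits the statements on silent genes to levels of 0.123 to 0.218 CPM.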
